A study of Mus musculus with 171 samples.

Results

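The comparison set epiblast (EPI) cells of Stat3-null mouse embryos against the inner cell mass (ICM) cells of Stat3-null embryos collected earlier. Members were chosen by sample title and lineage label alone: 9 cells labelled EPI from 4 embryos with E3.75 (embryonic day) in the title, and 55 cells labelled ICM from 5 embryos with E3.5, together 64 of the 171 single cells of the series. Counts were summed per embryo, which gave 9 of the 24 sums of embryo and lineage that the series holds. All 9 embryos carried the genotype Stat3 -/- (MUT), so no step of this comparison contrasts presence and absence of Stat3. The same step in wild type (WT) was set beside it, with 64 ICM cells of 5 embryos and 19 EPI cells of 3 embryos, as were 14 primitive endoderm (PrE) cells of the 4 MUT embryos that gave the EPI cells.

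The ICM is the group of pluripotent cells inside the blastocyst. It sorts into EPI, which forms the fetus and is marked by NANOG, SOX2 and FGF4, and PrE, which lines the cavity and is marked by GATA6, GATA4, SOX17 and basement membrane proteins. FGF4 made by EPI precursors acts through FGF receptors on neighbouring cells and favours PrE. STAT3 carries the signal of the cytokine LIF from gp130 receptors to the nucleus, where it binds target genes such as Socs3, and it sustains the naive state of pluripotent cells in culture. The series title names the control of imprinted genes by metabolism in naive cells, and lists of both kinds were therefore among those examined.

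The sums held 8117787 to 88167705 counts in the 5 ICM embryos (4 to 19 cells each) and 10351004 to 28692221 in the 4 EPI embryos (1 to 3 cells each). Median counts per cell were 10351004 to 11201876 in EPI embryos and 2000230 to 4229662 in ICM embryos, and median genes detected per cell were 11122 ± 444 (SD, n = 4) against 8898 ± 927 (SD, n = 5). Both values separated the groups completely (exact two-sided permutation p = 0.0159, the smallest that 4 against 5 embryos allow, adjusted p = 0.0286 over 9 quality values). The mitochondrial share of counts was 4.08% ± 0.164 (SD, n = 4) in EPI and 3.15% ± 0.972 (SD, n = 5) in ICM (exact permutation p = 0.19). Xist and Y-linked counts called all 4 EPI embryos male, ICM embryo 23 male, and ICM embryos 2, 10, 18 and 24 female. Every EPI cell carried the title letter A or B and every ICM cell a letter from D to H, so stage and letter cannot be told apart. The source label of the EPI cells also names E3.5, while their titles say E3.75; the titles were followed. The labels do not say how the null embryos were bred, which embryos were littermates or what the letter stands for. The p-values therefore measure only the spread between the values of these embryos. That spread also holds the sampling of cells, 1 to 3 per EPI embryo and 4 to 19 per ICM embryo. In sums over cells, fewer cells of a type and less RNA per cell cannot be told apart.

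Stat3 itself (chromosome 11, 100885098 to 100939540, minus strand) was at 10.9, 12.4, 6.97, 0.13 and 1.05 CPM (counts scaled to a fixed library size) in ICM embryos 2, 10, 18, 23 and 24. It was at 26.4, 0.286, 8.4 and 0.0294 CPM in EPI embryos 1, 2, 4 and 5. The 2 groups overlapped (exact permutation p = 0.73), and every MUT value lay below the lowest WT value, which was 43.9 CPM in ICM and 84.5 CPM in EPI. Against WT the exact permutation p was 0.00794 in the ICM and 0.0571 in EPI, each the smallest its group sizes allow. A Stat3 count was found in 45 of the 55 ICM cells and 6 of the 9 EPI cells. Counts cover the whole gene, and the labels do not say which exons the allele lacks.

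Of 49671 genes, 11733 passed the filter on low counts, and 8 of them (0.0682%) passed an adjusted p of 0.05 in edgeR's quasi-likelihood test. Cldn6, Igfbp2, Cobl, Zfp36l1 and Itpk1 rose from ICM to EPI (0.0426% of genes tested), and Timd2, Psmb9 and Xist fell (0.0256%). At an unadjusted p under 0.05 there were 341 higher genes (2.91%) and 607 lower ones (5.17%). Every EPI embryo lay above every ICM embryo for 246 genes (2.1%) and below for 328 genes (2.8%). The median log2 fold change of all genes tested was -0.06. Apart from Timd2 (adjusted p = 0.0039), the calls lay close to the threshold: the largest adjusted p among them was 0.0478 and the next smallest of any gene was 0.0892. The count of 8 became 1 without ICM embryo 2, 17 without ICM embryo 10, 1 without ICM embryo 18, 3 without ICM embryo 23 and 1 without ICM embryo 24. It became 5 without EPI embryo 1, 0 without EPI embryo 2 (edgeR, 1206 genes at unadjusted p under 0.05), 1 without EPI embryo 4 and 1 without EPI embryo 5. DESeq2 called 415 genes on the same sums, among them these 8.

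The 5 genes that rose encode proteins of different kinds. Cldn6, a claudin of tight junctions (ENSMUSG00000023906, chromosome 17, 23679249 to 23682446, plus strand), was at 3.7, 2.52, 0.908, 0 and 2.46 CPM in ICM embryos 2, 10, 18, 23 and 24. In EPI embryos 1, 2, 4 and 5 it was at 138, 75.9, 224 and 140 CPM. The lowest EPI value was thus far above the highest ICM value, with a log2 fold change of 6.21 (SE 0.94, edgeR adjusted p = 0.0478). Igfbp2, a secreted protein that binds insulin-like growth factors (ENSMUSG00000039323, chromosome 1, 72824503 to 72852474, plus strand), had 16 counts in all 5 ICM sums together and 4579 in the EPI sums. Its EPI values were 5.21, 84.7, 58.1 and 50.5 CPM, and no ICM embryo exceeded 0.149 CPM (log2 9.96, SE 1.53, adjusted p = 0.0478).

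Zfp36l1, an RNA-binding protein that promotes decay of mRNAs with AU-rich elements (ENSMUSG00000021127, chromosome 12, 80107754 to 80113013, minus strand), was at 26.7, 34.2, 54.4, 38 and 54.3 CPM in ICM and 160, 353, 321 and 498 CPM in EPI. Groups did not overlap, and the ICM embryos were close to each other (log2 2.99, SE 0.43, adjusted p = 0.0478). Cobl, an actin nucleator (ENSMUSG00000020173, chromosome 11, 12236608 to 12464960, minus strand), was at 24.6, 39, 10.1, 9.89 and 16.8 CPM in ICM and 181, 489, 132 and 221 CPM in EPI (log2 3.67, SE 0.57, adjusted p = 0.0478). Cobl was also a member of the imprinted gene list. Itpk1, an inositol phosphate kinase (ENSMUSG00000057963, chromosome 12, 102568582 to 102704930, minus strand), was at 25.4, 65.2, 33.5, 12.5 and 44.7 CPM in ICM. Its 4 EPI embryos were at 235, 245, 344 and 329 CPM, all above the highest ICM embryo (log2 2.98, SE 0.48, adjusted p = 0.0478).

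Timd2, a cell surface receptor for ferritin (ENSMUSG00000040413, chromosome 11, 46668960 to 46707061, minus strand), had the smallest adjusted p of all genes. It was at 56.6, 112, 493, 207 and 377 CPM in ICM and 1.35, 1.24, 1.5 and 0.647 CPM in EPI (log2 -7.73, SE 0.81, adjusted p = 0.0039). The call was kept in 8 of the 9 fits that left out 1 embryo. Psmb9, a catalytic subunit of the immunoproteasome (ENSMUSG00000096727, chromosome 17, 34181987 to 34187764, minus strand), had 6049 counts in the ICM sums and 6 in the EPI sums. ICM embryos were at 36.6, 12.1, 60.7, 23.6 and 13.1 CPM and EPI embryos at 0.0869, 0, 0.0313 and 0.0882 CPM (log2 -8.96, SE 1.46, adjusted p = 0.0478). Psmb10, a related subunit, overlapped between the groups, with a log2 fold change of 0.92 (SE 1.11, adjusted p = 0.922).

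Xist, the noncoding RNA that silences an X chromosome in female cells (ENSMUSG00000086503, chromosome X, 103460366 to 103483254, minus strand), was at 388, 354, 182, 2.21 and 825 CPM in ICM and had no counts in the 4 EPI sums. Against a floor of 3 counts over the EPI group it was at least 11607-fold lower. Xist was itself used, with Y-linked counts, to call embryo sex, and the ICM value of 2.21 CPM belongs to embryo 23, called male; stage, letter and sex cannot be told apart in the EPI embryos. For the other 7 genes ICM embryo 23 lay on the ICM side of every EPI embryo. Timd2 was at 207 CPM there, Psmb9 at 23.6, Zfp36l1 at 38, Itpk1 at 12.5, Cobl at 9.89, and Cldn6 and Igfbp2 at 0. Embryo 23 was in the fit that called these genes, so its values are no separate test of a part of sex. With embryo sex as a term of the model, Timd2 alone was called (adjusted p = 0.0366), with male embryos only none was (edgeR, 1825 genes at unadjusted p under 0.05), and all 8 kept their sign in both fits.

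**Figure D1:**
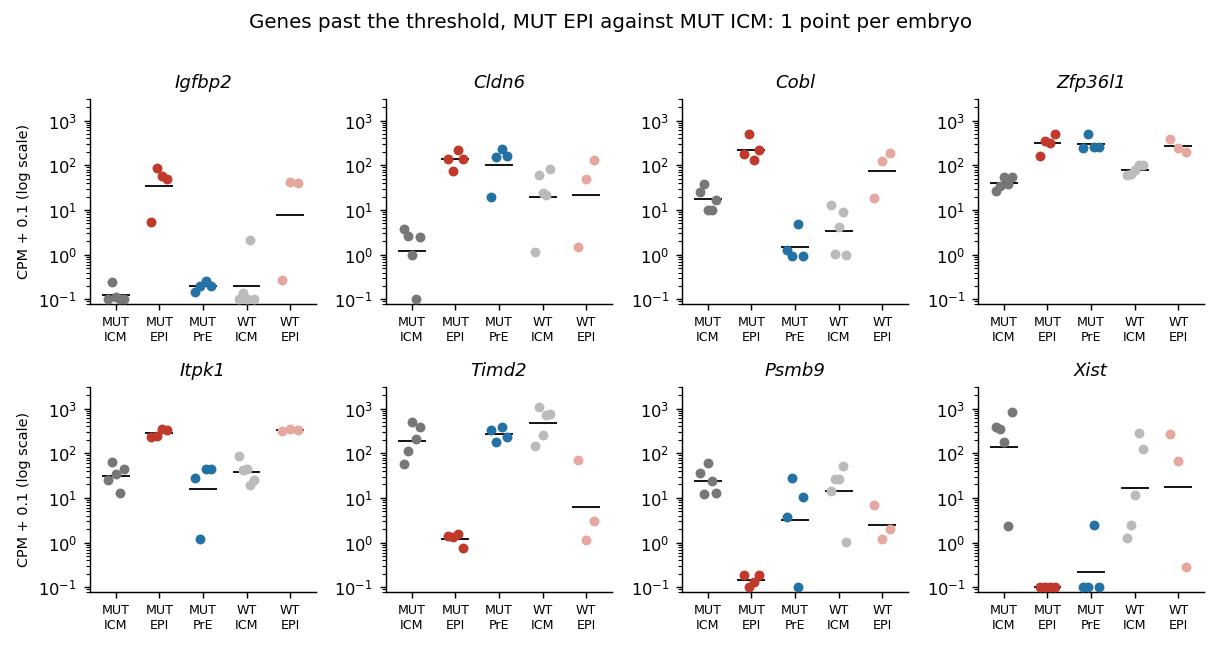
CPM plus 0.1 on a log scale for the 8 genes past the threshold, with 1 point per embryo and the geometric mean as a line, in MUT ICM (n = 5), MUT EPI (n = 4), MUT PrE (n = 4), WT ICM (n = 5) and WT EPI (n = 3). In each panel the 4 MUT EPI points sit apart from the 5 MUT ICM points, and for Cldn6 and Zfp36l1 most MUT PrE points sit at the height of the EPI points.

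The 7 genes just outside the threshold each had an adjusted p of 0.0892; apart from Amt and Aqp8 they were chosen after their values were seen. Trim71, an RNA-binding ubiquitin ligase of early embryos, was at 8.3 to 34.1 CPM in ICM and 92.7 to 234 CPM in EPI (log2 3.05, SE 0.53). Slc7a3, a transporter of cationic amino acids, was at 0.617 to 28.2 CPM in ICM and 207 to 717 CPM in EPI (log2 4.86, SE 0.89), and Amt, a component of the glycine cleavage system, at 55 to 110 and 226 to 394 CPM (log2 2.02, SE 0.37). On the lower side, Ckmt1, a mitochondrial creatine kinase, was at 108 to 199 CPM in ICM and 6.23 to 25.9 CPM in EPI (log2 -2.98, SE 0.53). Hist1h1b, a linker histone, was at 30.1 to 273 and 1.87 to 11.2 CPM (log2 -4.24, SE 0.78). Slc34a2, a phosphate transporter, was at 6.87 to 120 and 0.094 to 0.434 CPM (log2 -7.35, SE 1.35), and Aqp8, a water channel on the PrE list, at 62.7 to 417 and 1.71 to 18.4 CPM (log2 -5.52, SE 1). None of the 7 overlapped between the groups.

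Markers of EPI were mostly higher and markers of PrE mostly lower in EPI than in ICM, although no single member of either list passed the threshold. Of the 28 naive and epiblast markers, 27 were tested and 21 (77.8%) were higher in EPI, beside 47.2% of all genes tested. Their median log2 fold change was 0.77. The other 6 were lower in EPI. At an unadjusted p under 0.05 in edgeR, 10 were higher and 2 lower. Every EPI embryo lay above every ICM embryo for 5 members and below for 1, beside 2.1% and 2.8% of all genes tested. Nanog, Fgf4, Sox2 and Esrrb, whose values follow, were all higher and do not stand for the 6 lower members. Nanog, the homeobox factor of naive cells, was at 214, 97.9, 235, 185 and 121 CPM in ICM and 407, 217, 570 and 990 CPM in EPI (log2 1.65, SE 0.46, adjusted p = 0.191), and EPI embryo 2 lay among the ICM embryos. Fgf4 had the smallest p of the list, with 1.41, 33.9, 6.63, 5.99 and 8.7 CPM in ICM and 119, 155, 79.1 and 125 CPM in EPI, without overlap (log2 3.4, SE 0.78, adjusted p = 0.178). Sox2 was at 3.73 to 24.7 CPM in ICM and 36.5 to 77.5 CPM in EPI (adjusted p = 0.303), and Esrrb, an orphan nuclear receptor, at 8.02 to 52.9 and 67.7 to 109 CPM (adjusted p = 0.443). Pou5f1, shared by ICM and EPI, overlapped, with 209 to 534 and 413 to 789 CPM. Summed over the list, EPI embryos lay within 13789 to 14757 CPM and ICM embryos spread from 4694 to 15824 CPM.

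Formative and primed markers, expressed as EPI leaves the naive state, had 8 of 16 members tested and all 8 were higher in EPI, with a median log2 fold change of 1.95. Otx2, a homeobox factor of that state, was at 0.0881, 4.17, 16.3, 12.5 and 1.44 CPM in ICM and 20.1, 38.2, 151 and 86 CPM in EPI (adjusted p = 0.301). The de novo DNA methyltransferases Dnmt3a and Dnmt3b, also members, overlapped between the groups, with adjusted p values of 0.937 and 0.817. The summed level of the list was highest in the 4 PrE sums, at 1962 to 2903 CPM against 370 to 1650 CPM in EPI. In ICM it was 69 to 554 CPM, which overlapped EPI.

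Primitive endoderm markers formed the list with the lowest median, -2.76 on the log2 scale. Of 30 members 28 were tested, and 26 were lower and 2 higher in EPI. At an unadjusted p under 0.05 in edgeR, 13 were lower and 1 higher. In all EPI embryos 7 lay below all ICM embryos and none above, beside 2.8% and 2.1% of all genes tested. Gata6 was at 39.6, 108, 48 and 37 CPM in ICM embryos 2, 10, 18 and 23, with embryo 24 the highest, and 0.869, 0.286, 14.5 and 4.38 CPM in EPI (log2 -3.85, SE 1.08, adjusted p = 0.194), without overlap. Fgfr2, a receptor for FGF4, was at 3.52, 179, 6.06, 4.95 and 55.4 CPM in ICM and 0.304, 0.382, 0.094 and 0.0588 CPM in EPI (log2 -7.93, SE 1.66, adjusted p = 0.165). The basement membrane gene Lama1 was at 33.6, 329, 123, 11.3 and 51.9 CPM in ICM and 4.34, 5.82, 2.51 and 2.15 CPM in EPI (adjusted p = 0.149). Neither Fgfr2 nor Lama1 overlapped, while Gata4 (1.95 to 370 CPM in ICM, 0.954 to 5.95 in EPI) and Pdgfra (7.94 to 794 and 1.18 to 30.3) did: ICM embryos 2 and 23 were at EPI level for Gata4, and ICM embryo 23 for Pdgfra. Sox17 also overlapped, with 4.23 to 166 CPM in ICM and 78.7, 1.72, 30 and 2.44 CPM in EPI.

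**Figure D2:**
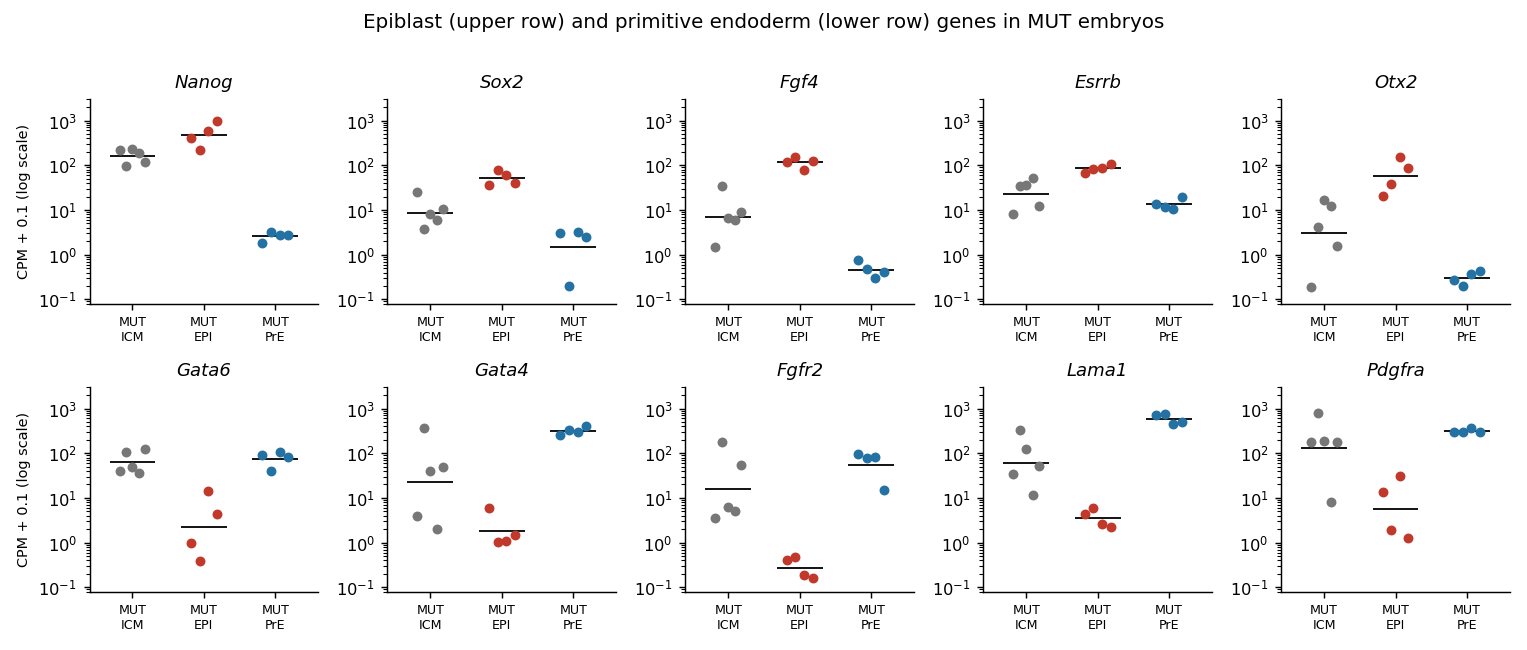
CPM plus 0.1 on a log scale for 5 EPI genes (upper row) and 5 PrE genes (lower row) in MUT ICM (n = 5), MUT EPI (n = 4) and MUT PrE (n = 4), with 1 point per embryo and the geometric mean as a line. Most EPI points lie above the ICM points for the upper genes and below them for the lower genes, and ICM points spread widely, as for Gata4 from 1.95 to 370 CPM.

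ICM embryos differed in how much PrE marker RNA they held. The summed level of the 30 PrE markers was 1835, 6427, 2790, 788 and 3221 CPM in ICM embryos 2, 10, 18, 23 and 24, and 1035, 782, 975 and 797 CPM in EPI embryos 1, 2, 4 and 5. ICM embryo 23, the male one, thus lay within the EPI range. The median log2 fold change of the list was 0.39 in a model with a term for embryo sex and 0.51 with male embryos alone, in fits where the median of all genes was 0.61 and 1.22. In single cells the sum was 540 to 1603 CPM in the 9 EPI cells, 350 to 16534 in the 55 ICM cells and 4010 to 16597 in the 14 PrE cells. Of the 55 ICM cells, 37 lay above the highest EPI cell and 20 at or above the lowest PrE cell. These 20 were not spread evenly: 14 came from ICM embryo 10, 4 from embryo 18, 2 from embryo 24 and none from embryos 2 and 23, and 6 were counted without embryo 10. The mark of the lowest PrE cell rested on 1 cell of embryo 5, at 4010 CPM, and the next lowest PrE cell was at 7473 CPM. No ICM cell outside embryo 10 exceeded 5584 CPM, so only cells of embryo 10 reached 7473 CPM. The part of the 20 ICM cells at or above the lowest PrE cell in the other differences between ICM and EPI was not tested. Timd2 was at 207 CPM in ICM embryo 23, whose PrE marker sum lay in the EPI range, against at most 1.5 CPM in EPI. The highest of the 4 cells of that embryo held 2523 CPM of PrE markers, above every EPI cell. Embryo 23 was also in the fit that called Timd2, so a part of cells with high PrE marker sums in its fall was not tested.

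**Figure D3:**
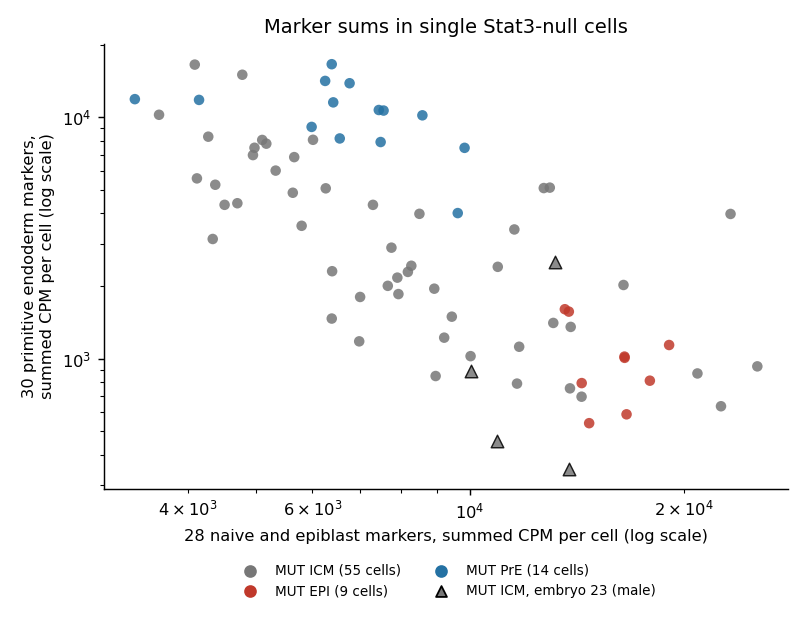
Each point is 1 Stat3-null cell, with the summed CPM of 28 naive and epiblast markers (x, log scale) and of 30 primitive endoderm markers (y, log scale). The 9 EPI cells sit at the lower right, the 14 PrE cells at the upper left, and the 55 ICM cells run between and around them, with 3 of the 4 cells of male ICM embryo 23 (triangles) between 350 and 887 CPM on the y axis and 1 at 2523.

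Markers of other cell types overlapped between the groups in their summed level. Trophectoderm markers, of the outer layer of the blastocyst, summed to 317 to 826 CPM in ICM and 274 to 1021 CPM in EPI, with a median log2 fold change of -0.13 over 11 of 18 members tested and a change of sign without ICM embryo 24. Its defining factor Gata3 had 2233 counts in the ICM sums, at 0.793 to 31.6 CPM, and none in the EPI sums, at least 430-fold lower against a floor of 3 counts over the group (adjusted p = 0.178). Krt8 overlapped, with a log2 fold change of -0.13 (SE 0.58). Genes of early cleavage were mostly at 0: 12 to 16 of the 16 had no count in each EPI sum and 12 to 14 in each ICM sum, and their summed level was at most 33.2 CPM in EPI and 96.5 CPM in ICM. Sp110 was the 1 tested member, with 0.837 to 32.8 CPM in ICM and 0 to 4.29 CPM in EPI (log2 -2.64, SE 1.80). Oocyte transcripts summed to 461 to 1494 CPM in ICM and 604 to 1142 in EPI; of 6 tested members 4 were higher, with a median of 0.33 that changed sign in 4 alternatives. Ooep, of the subcortical maternal complex, was at 6.85 to 131 CPM in ICM and 70.2 to 152 CPM in EPI (log2 0.83, SE 0.68).

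Signalling pathways were described list by list, with no test of a list. Of 16 Nodal pathway genes 15 were tested and 13 were higher in EPI, with a median log2 fold change of 0.80, and no member was called. The ligand Nodal was at 0, 0.458, 4.67, 0 and 0.217 CPM in ICM and 0, 110, 108 and 42.5 CPM in EPI (adjusted p = 0.29). Its feedback inhibitor Lefty2 was at 4.67, 4.51, 3.99, 0.13 and 35.8 CPM in ICM and 0.304, 69.6, 1647 and 234 CPM in EPI (adjusted p = 0.208). EPI embryo 1 was at ICM level for both, and the co-receptor Tdgf1 was also lowest there, at 298 CPM against 693 to 1505 in the other EPI embryos. Both EPI cells of embryo 1 carried the title letter B, as did the single cell of embryo 2, where Nodal was high.

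FGF and ERK response genes had 15 of 15 members tested, of which 10 were higher in EPI, with a median log2 fold change of 0.41. Egr1, an immediate early transcription factor, was at 66.1, 137, 32.3, 65.7 and 1.41 CPM in ICM and 650, 735, 741 and 718 CPM in EPI (log2 3.54, SE 0.81, adjusted p = 0.178). Etv5, an ETS factor downstream of FGF, was at 101 to 222 CPM in ICM and 258 to 550 CPM in EPI, and Ier2, an immediate early gene, at 66.1 to 211 and 287 to 711 CPM. The groups overlapped in none of these 3 genes. Of the 15 list members, 3 lay above all ICM embryos in every EPI embryo, beside 2.1% of all genes tested. Another 5 members were lower in EPI, and none lay below all ICM embryos in every EPI embryo, beside 2.8%. Immediate early and heat shock genes as a list had 12 of 16 tested members higher and a median of 1.65. Such genes respond within minutes to handling of cells as well as to growth factors; a part of collection in these values was not tested.

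Of 15 BMP pathway and Id genes, 9 were tested and 5 were higher, with a median of 0.09 whose sign changed in 5 of 23 alternatives. Id3, a target of BMP signalling, did not overlap, with 114 to 617 CPM in ICM and 739 to 936 in EPI (log2 1.19, SE 0.42, adjusted p = 0.373). Wnt pathway genes had 12 of 17 tested members higher, with a median of 0.63 that turned negative when EPI embryos of letter A alone were used. The ligand Wnt7b was at 0.264 to 15.6 CPM in ICM and had 4 counts in the EPI sums (adjusted p = 0.29).

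STAT3 targets were listed because both groups carry the Stat3 -/- genotype. Of 22 listed genes 19 were tested, 15 were higher in EPI and none was called, with a median log2 fold change of 0.75. In WT 13 of 20 were higher and the median was 1.32. Over 23 alternatives the MUT median was 0.61 to 1.37. The median of all genes was itself 1.22 with male embryos only, 0.61 with a term for embryo sex and 0.65 in limma-trend. A positive list median in those 3 fits does not set the list apart. Shown here are the stretches around the STAT-binding letters TTCNNNGAA, the same on both strands, in the promoters of listed genes that hold them. RefSeq windows on GRCm38.p6, from 250 bases before to 50 after each start site, existed for 19 of the 22 genes, and 4 of their 29 windows (13.8%) held the letters, beside 6.37% of 10801 windows of genes tested and 8.3% of all 32851 windows. Capitals mark the matching letters, and each sequence reads 5′ to 3′ on the strand of its gene.
Socs3, chr11:117969487-117969546, minus strand, match beginning 154 bases before the start, inside the GENCODE gene but in none of its exons: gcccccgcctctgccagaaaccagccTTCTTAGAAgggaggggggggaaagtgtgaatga
Cish, chr9:107296654-107296683, plus strand, matches beginning at the start and 11 bases after it, overlapping a GENCODE exon: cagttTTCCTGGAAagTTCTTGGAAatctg
Icam1, chr9:21015872-21015931, plus strand, match beginning 42 bases before the start, in no GENCODE gene: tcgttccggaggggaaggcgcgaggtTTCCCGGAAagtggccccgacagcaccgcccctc
Sgk1, chr10:21881935-21881994, plus strand, match beginning 223 bases before the start of 1 of 6 windows, in no GENCODE gene: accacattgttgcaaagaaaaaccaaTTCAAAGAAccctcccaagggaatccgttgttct

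The 4 genes with these letters did not move together. Socs3, the feedback inhibitor of gp130 signalling, was at 0.264, 1.8, 4.71, 1.95 and 0.0361 CPM in MUT ICM and 7.51, 0, 0.0313 and 0.147 CPM in MUT EPI, with full overlap (log2 0.12, SE 1.79, adjusted p = 0.999). In WT it was at 20.6, 24.2, 7.1, 0.0101 and 0.52 CPM in ICM and 111, 147 and 42.7 CPM in EPI (log2 3.26, adjusted p = 0.35), and the difference between the genotypes had an unadjusted p of 0.196. Cish, a related inhibitor, was at 0 to 9.46 CPM in MUT ICM and at most 0.191 CPM in MUT EPI (log2 -6.22, SE 2.17, adjusted p = 0.359). Icam1, an adhesion molecule, overlapped at 0.217 to 27.2 and 0.147 to 30.4 CPM, and Sgk1, a kinase, at 27.7 to 135 and 74 to 267 CPM. Klf4, the list member with the smallest p, was at 5.34 to 28.5 CPM in ICM and 16.8 to 259 CPM in EPI (log2 2.65, SE 0.80, adjusted p = 0.221). Tfcp2l1, a naive factor, was at 333 to 629 and 124 to 515 CPM. None of the 11 windows of the 8 called genes held the letters, which says only that they are not in these windows.

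Metabolic lists differed little in their medians. TCA cycle and alpha-ketoglutarate genes had 19 of 24 members lower in EPI and a median log2 fold change of -0.28, beside -0.06 over all genes. The list and all-gene medians were 0.21 and 1.22 with male embryos only, 0.14 and 0.61 with a term for embryo sex, and 0.88 and 0.65 in limma-trend. Idh3g, on the X chromosome, encodes an isocitrate dehydrogenase subunit and was at 376, 373, 650, 703 and 1603 CPM in ICM and 235, 190, 247 and 267 CPM in EPI (log2 -1.67, SE 0.47, adjusted p = 0.191), without overlap. Nuclear OXPHOS subunits had 43 of 73 lower and a median of -0.14, and Uqcrc1, a core subunit of complex III, was at 580 to 1432 and 350 to 528 CPM (adjusted p = 0.405). Of 13 mitochondrially encoded mRNAs 9 were lower, with a median of -0.34 that turned positive without ICM embryo 23. In contrast mt-Nd6, the gene of the light strand, was at 13.5 to 157 CPM in ICM and 236 to 426 in EPI (adjusted p = 0.469); without stranded counting its reads cannot be told from antisense reads of the opposite strand. Glycolysis genes had 13 of 21 higher and a median of 0.25, negative with EPI embryos of letter B alone. Ldha was at 107 to 258 CPM in ICM and 161, 445, 1514 and 548 CPM in EPI (adjusted p = 0.184), and the glucose transporter Slc2a1 at 19.5 to 164 and 168 to 325 CPM (adjusted p = 0.443).

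Cholesterol synthesis genes split into 9 higher and 11 lower of 20 (median -0.23), with Insig1 at 62.5 to 104 CPM in ICM and 11.6 to 68.5 in EPI (adjusted p = 0.617). Threonine, serine and one-carbon genes split into 7 higher and 9 lower of 16 (median -0.09). Glutathione and redox genes had 14 of 22 lower (median -0.30), among them Gsto1 at 40.9 to 364 and 19.6 to 78.2 CPM (adjusted p = 0.195), and integrated stress response genes 7 of 10 (median -0.45), with Ddit3 at 3.66 to 138 and 0.304 to 22 CPM (adjusted p = 0.469). No member of these 4 lists was called.

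The DNA methylation machinery had 13 of 16 members higher in EPI, with a median of 0.67 (0.34 to 1.64 over 23 alternatives). The median of all genes was itself 1.22 with male embryos only, 0.61 with a term for embryo sex and 0.65 in limma-trend. Tet1, which oxidises methylcytosine, was at 135 to 373 CPM in ICM and 279 to 995 in EPI, and Tet2, with the smallest p of the list, moved the other way, at 110 to 306 and 61.7 to 112 CPM (log2 -1.12, SE 0.43, adjusted p = 0.44). Histone demethylases had 10 of 16 higher, led by Kdm5b at 78.3 to 240 CPM in ICM and 344 to 709 in EPI (log2 1.69, SE 0.40, adjusted p = 0.178). Of 79 imprinted genes 44 were tested, 24 were higher and the median was 0.21, with a change of sign in 5 alternatives. Cobl was called upwards and Xist downwards, beside 0.0426% and 0.0256% of all genes tested, and Xist is the gene also used to call embryo sex. Of the 44, 1 lay above and 2 below all ICM embryos in every EPI embryo, beside 2.1% and 2.8% of all genes tested. Igf2, the paternally expressed growth factor, was at 0.542 to 3.93 CPM in ICM and had 5 counts in the EPI sums (adjusted p = 0.178). Zfp57, which maintains imprints, overlapped at 35.7 to 88.6 and 38.1 to 271 CPM.

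Pramel and Dppa-type germline genes had 9 of 13 tested members lower in EPI and a median of -1.84, and 5 of the 13 lay below all ICM embryos in every EPI embryo, beside 2.8% of all genes tested. Pramel7, a factor of the naive ground state, was at 55.6, 140, 78.2, 41.9 and 240 CPM in ICM and 4.78, 0.668, 11.3 and 1.44 CPM in EPI (log2 -4.62, SE 0.94, adjusted p = 0.149). Pramel6 was at 92.9 to 251 and 0.954 to 32.1 CPM, and Dppa3, a maternal factor that protects methylation, at 269 to 2622 and 356 to 1165 CPM. Proteasome subunits had 33 of 37 lower with a median of -0.67. Psmb9 was the only one called, beside 0.0256% of all genes tested called lower, and it belongs to the immunoproteasome. Adhesion and junction genes had 13 of 22 higher and 9 lower, with a median of 0.41 (negative with letter A alone). Cldn6 was the only one called, beside 0.0426% of all genes tested called higher. Cdh1 (38.7 to 202 and 228 to 360 CPM) and Cldn4 (26.2 to 117 and 138 to 360 CPM) did not overlap but were not called. In all, 3 of the 22 lay above all ICM embryos in every EPI embryo and none below, beside 2.1% and 2.8% of all genes tested.

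Housekeeping and cell cycle lists lay near the median of all genes. Cytoplasmic ribosomal proteins had 34 of 83 higher and a median of -0.09, with Rps4x at 893 to 3056 CPM in ICM and 663 to 1169 in EPI (adjusted p = 0.216), and mitochondrial ribosomal proteins 24 of 77 and -0.22, with Mrpl39 at 72.5 to 137 and 141 to 333 CPM (adjusted p = 0.311). Ribosome biogenesis genes had 16 of 28 higher and a median of 0.10, and Nip7 was at 135 to 327 and 114 to 188 CPM (adjusted p = 0.652). S and G2/M genes had 22 of 34 higher and a median of 0.09, and Ube2c was at 149 to 488 and 178 to 1292 CPM (adjusted p = 0.542). Of p53 targets and cell death genes, 10 of 17 were higher, and Gdf15 was at 0 to 2.22 CPM in ICM and 3.91, 117, 6.42 and 0 CPM in EPI (adjusted p = 0.443).

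**Figure D4:**
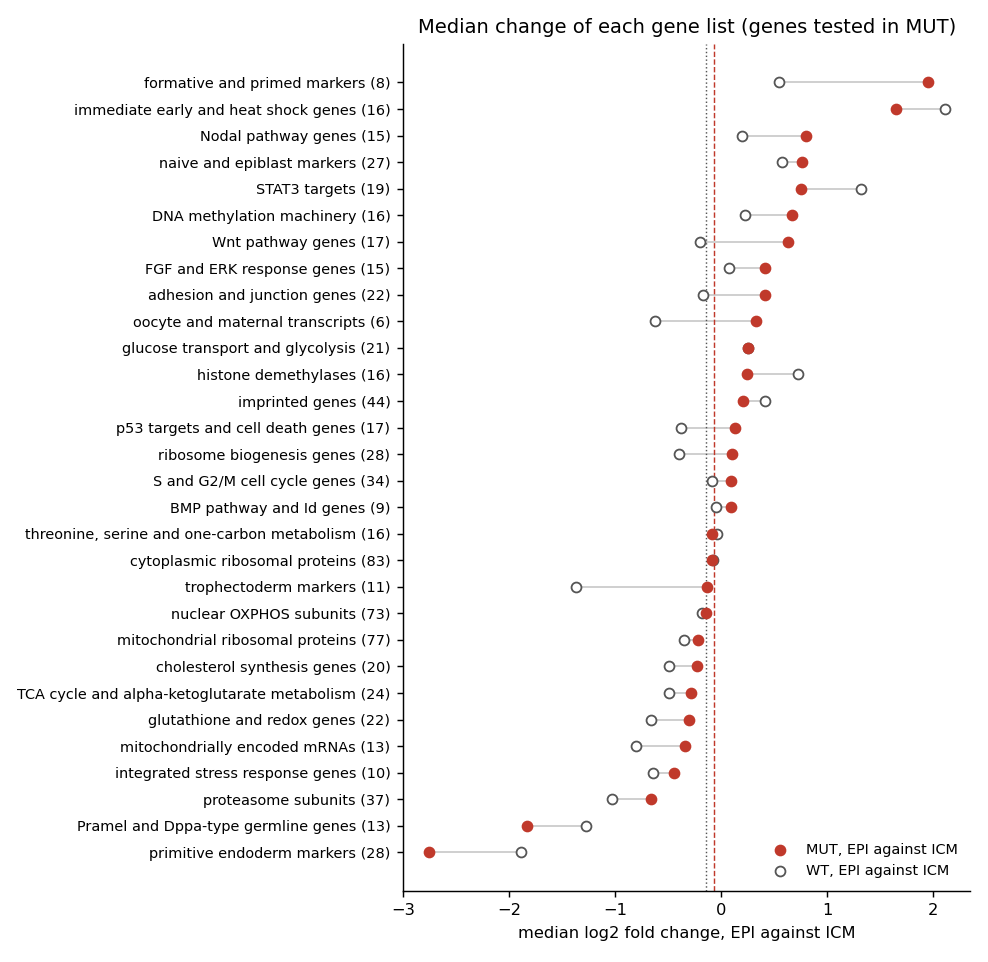
Median log2 fold change of EPI against ICM for each gene list with at least 5 genes tested, in MUT (filled points; 4 against 5 embryos) and WT (open points; 3 against 5 embryos), with the number tested in MUT in brackets and the medians of all genes as dashed (MUT, -0.06) and dotted (WT, -0.14) lines. Formative markers (1.95) and immediate early genes (1.65) lie farthest to the right in MUT, and PrE markers (-2.76) and Pramel and Dppa-type genes (-1.84) farthest to the left.

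In WT the same step called 43 of 13972 genes (0.308%), 24 higher and 19 lower. That count ranged from 0 to 162 when 1 embryo was left out. The 2 genotypes share no embryos and differ in embryo sex. WT ICM embryos 13, 16 and 20 and WT EPI embryo 3 were called male. WT ICM embryos 21 and 22 and WT EPI embryos 1 and 2 were called female. The MUT step thus went from mostly female to all male embryos, while both WT groups held both sexes. Across the 11505 genes tested in both, log2 fold changes had a Pearson r of 0.34 and a Spearman rho of 0.382, where genes are not independent replicates, and 64.4% had the same sign. Of the 8 genes called in MUT, 7 had the same sign in WT and 1, Itpk1, was called there too, at 19 to 86.4 CPM in WT ICM and 311 to 340 CPM in WT EPI (log2 2.90, SE 0.47, adjusted p = 0.0429). Of the 43 genes called in WT, 42 had the same sign in MUT. PrE markers had a WT median of -1.89 and naive and epiblast markers one of 0.57.

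No gene passed the test of the difference between the genotypes in their step from ICM to EPI (0 of 15756, 0%, edgeR; smallest adjusted p = 0.23). At an unadjusted p under 0.05 there were 1458, DESeq2 called 501 and limma-trend 0. With a term for embryo sex edgeR called 0 (1211 genes at unadjusted p under 0.05, smallest adjusted p = 0.419). The 5 smallest p values belonged to Tat, Habp4, Qsox2, Cbr2 and Rab31. Tat, the tyrosine catabolic aminotransferase, was at 5.34 to 19.4 CPM in MUT ICM and had no counts in MUT EPI, at least 369-fold lower, and in WT it had means of 48.7 and 22 CPM. Cbr2, a carbonyl reductase, was at 3.83 to 56.9 CPM in MUT ICM and had 3 counts in the EPI sums, with WT means of 2.03 and 4.26 CPM. Rab31, a vesicle traffic GTPase, was at 3.79 to 49.9 CPM in MUT ICM and at most 0.217 in MUT EPI, with WT means of 30.4 and 17.4 CPM. Habp4 was at 0.391 to 28.2 CPM in MUT ICM and had 4 counts in MUT EPI, with WT means of 0.0468 and 3.12 CPM, and Qsox2 was at 15.2 to 45.5 and 0.0954 to 10.5 CPM, beside WT means of 0.157 and 13.5 CPM.

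Cldn6 had the same sign but a smaller value in WT, at 1.06 to 82.3 CPM in ICM and 1.41 to 131 CPM in EPI (log2 0.72, SE 1.23); the difference of 5.52 between the genotypes had an unadjusted p of 0.00385 and an adjusted p of 0.231. Timd2 was at 145 to 1071 CPM in WT ICM and 1.06 to 70.4 CPM in WT EPI (log2 -4.52, adjusted p = 0.187), and Psmb9 at 0.937 to 51.1 and 1.11 to 6.78 CPM (log2 -2.86, adjusted p = 0.325). For both the adjusted p of the genotype difference missed the threshold, at 0.432 and 0.23. In Zfp36l1 the log2 change was 1.78 in WT and 2.99 in MUT (adjusted p of the difference 0.471).

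**Figure D5:**
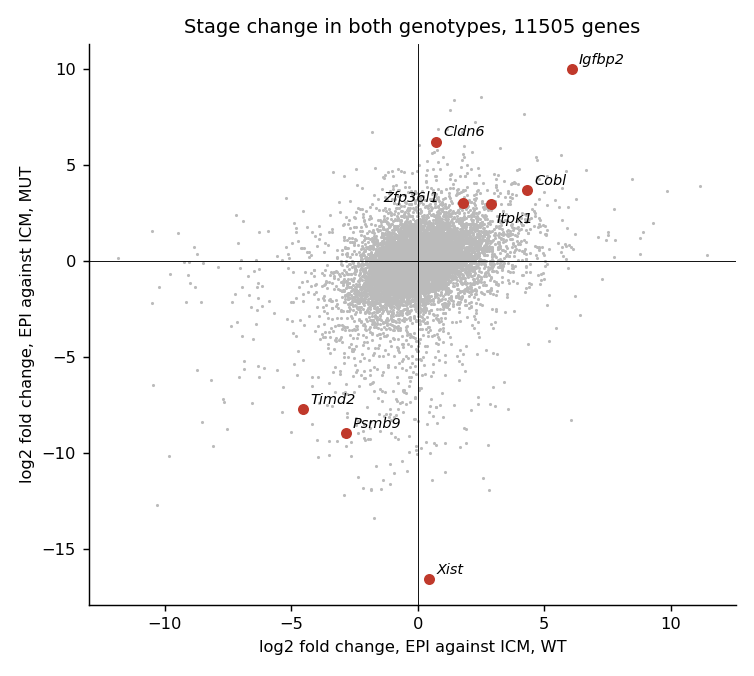
Log2 fold change of EPI against ICM in WT (x) and MUT (y) for 11505 genes tested in both, 1 point per gene, with the 8 genes called in MUT in red. Of these, 7 lie in the quadrant of equal sign, Itpk1 near 2.9 on both axes, and Xist, with no counts in MUT EPI, lies at the foot of the plot.

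The PrE cells of the same 4 embryos give E3.75 values of the sister lineage. EPI and PrE differed in 177 of 10698 genes (1.65%), 54 higher and 123 lower in EPI, and 74 with the embryo as a block. Cldn6 was at 18.9, 153, 231 and 158 CPM in PrE and Zfp36l1 at 246, 511, 263 and 261 CPM, and neither was called between EPI and PrE, with log2 differences of 0.06 (SE 0.62) and 0.07 (SE 0.37). Igfbp2 was at most 0.159 CPM in PrE and Cobl at most 4.77 CPM, and both were called higher in EPI (adjusted p = 0.00522 and 0.00296, or 0.0308 and 0.0393 with the block). Timd2 was at 324, 178, 384 and 227 CPM in PrE, within its ICM range, and was called lower in EPI (log2 -7.86, SE 0.45, adjusted p = 7.36e-05, or 0.00253 with the block). Itpk1 was at 1.11 to 44.7 CPM in PrE (adjusted p = 0.101). Among the genes just outside the threshold, Slc7a3 was higher in EPI than in PrE (0.655 to 7.66 CPM in PrE, adjusted p = 0.00682) and Slc34a2 lower (23.4 to 109 CPM in PrE, adjusted p = 0.00235).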

How the data were processed

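Single-cell RNA-seq profiles were used, 1 deposited sample being 1 cell. The authors deposited whole-number counts per gene with no normalization; STAR, HTSeq and the mm10 build are named, per the submitters' processing notes, without versions, strand setting or library method, so overlapping and antisense genes cannot be told apart. Gene names and positions came from GENCODE vM21; 259 of 49671 rows had no match and held 0.0101% of counts. Copies made by PCR are not independent molecules.

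Because cells are not replicates, counts were added up over the cells of each embryo and lineage; the embryo was read from the number in the title, a meaning that no label spells out. No cell was removed or clustered, and doublets were not searched for. The sums went into edgeR (version 4.0.16, quasi-likelihood, robust; R 4.3.3) after TMM scaling and a low-count filter (filterByExpr, at least 10 counts), with Benjamini-Hochberg adjustment over all genes tested and a threshold of 0.05. The SE is the absolute log2 fold change over the square root of F, so it restates the test. CPM values are TMM-scaled. DESeq2 1.42.0 and limma 3.58.1 were alternatives. For single values the exact permutation test, two-sided, was used. The script was tested on simulated data.

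Embryo members and gene lists were chosen with earlier results of these data known, and no list was given a test. By rule, Stat3, the called protein-coding genes that reached 10 CPM in a group and kept their sign whichever embryo was left out (up to 12 rises and 12 falls), up to 3 called members or the smallest p of each list, and the 5 smallest p values of the genotype difference were named. Xist was named as a called gene and a list member. Other genes, among them Nanog, Sox2, Gata4, Nodal, Socs3 and those just outside the threshold, were chosen after their values were seen. ICM and EPI come from different embryos, so they were not paired. EPI and PrE come from the same embryos, so the embryo was also fitted as a block. Alternatives are listed in the closing section; 3 of them (male embryos only, EPI embryos of letter A only, of letter B only) were added after seeing the data. Where a fit left 1 embryo in a group, that embryo was assumed to vary like the others. The result of 1 gene that the rule names is not reported here.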

Additional observations from a re-analysis of the deposited data

Results flagged for a closer look

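In 10 of 88 groups of embryos (41 genes and 3 quality values, each in ICM and EPI), 1 embryo stood apart from the rest by Dixon's criterion; chance flags about 1 group in 20, or 5%. In MUT ICM these were Igfbp2 at 0.149 CPM and Fgf4 at 33.9 CPM in embryo 10, Sp110 at 32.8 CPM in embryo 23, Lefty2 at 35.8 CPM and Idh3g at 1603 CPM in embryo 24, and Gdf15 at 2.22 CPM in embryo 18. In MUT EPI they were Aqp8 at 18.4 CPM in embryo 1, Ooep at 152 CPM in embryo 5, Lefty2 at 1647 CPM in embryo 4 and Gdf15 at 117 CPM in embryo 2, which is a single cell.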

How the results depend on the processing

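The count of genes called between MUT EPI and MUT ICM (8; 5 higher, 3 lower) was 415 (119, 296) with DESeq2, 223 (210, 13) with limma-trend on each embryo's mean log2(CPM + 1) over cells, 70 (23, 47) with 1 spread for all sums, 22 (9, 13) without the low-count filter, 15 (6, 9) with autosomal protein-coding genes only, 1 (0, 1) with embryo sex in the model and 1 (0, 1) with a minimum fold of 1.5. Limma-trend, which weights cells equally, moved the median of all genes to 0.65. In edgeR the count was 1 (1, 0) with EPI embryos of letter A only and 0 with letter B only (1116 genes at unadjusted p under 0.05), male embryos only (1825) or without the sum of 1 cell (1206). Leaving out 1 embryo gave 0 to 17, with 0 to 11 higher and 0 to 6 lower. RLE scaling gave 8, shallow cells removed 7 and thinned sums 9. The 8 genes kept their sign in all alternatives that tested them. The WT count of 43 was 1085 with DESeq2, 85 without the filter and 0 to 162 without 1 embryo (0 without WT EPI embryo 2, 1347 at unadjusted p under 0.05). The genotype difference went from 0 to 501 with DESeq2. EPI against PrE went from 177 to 646 with DESeq2, 74 with the embryo as replicate block (a paired fit) and 102 to 162 without 1 embryo. No paired analysis was possible because ICM and EPI come from different embryos, which share only the number 2. The log2 change of Stat3 reversed from 0.47 to -0.54 with letter A only and to -1.07 without EPI embryo 1, and ranged up to 0.89 over the fits without 1 embryo. The cause of these moves was not tested. Small groups, 1 EPI embryo of a single cell, and the join of stage with letter, depth per cell and mostly with sex limit every value here.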

Other observations

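Replication-dependent histone genes, which are expressed in S phase and mostly lack poly(A) tails, were looked at after their values were seen. Of 64 such genes 41 were tested, 36 were lower in MUT EPI than in MUT ICM and the median log2 fold change was -1.40, against -0.11 in WT. None was called. Hist1h4d was at 45.4 to 526 CPM in ICM and 21.6 to 59 CPM in EPI (log2 -3.16, SE 0.68, edgeR adjusted p = 0.172), and Hist2h2ac had 1928 counts in the ICM sums and 1 in the EPI sums. Hist1h1b was at 0.337 to 13 CPM in the PrE sums, beside 1.87 to 11.2 CPM in EPI. The cause was not tested.

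Srm, which makes spermidine, was at 28.4 to 155 CPM in MUT ICM and 333 to 414 CPM in MUT EPI (log2 2.49, SE 0.50, adjusted p = 0.149). It was at 8.7 to 29.1 and 304 to 344 CPM in WT (log2 4.12, adjusted p = 0.0127) and at 415 to 864 CPM in MUT PrE. X-linked genes had 273 of 416 lower in MUT EPI and a median of -0.37, beside -0.05 over 11268 autosomal genes. In WT the X-linked median was -0.29 and the autosomal median -0.13, and the WT groups had another make-up of embryo sex. A part of sex in these medians was not tested.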
